A study of Homo sapiens with 16 samples.

Results

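The lysyl oxidases (LOX, LOXL1, LOXL2, LOXL3 and LOXL4), the lysyl hydroxylases (PLOD1, PLOD2 and PLOD3) and the prolyl hydroxylase subunit P4HA3 were followed across U-251 MG human glioblastoma cells given simvastatin, irinotecan or both. These 9 genes, of 58243 in the count table, were chosen by their symbols and on their measured values in these same libraries, so their fold changes, and the edgeR calls counted for them, are a description and no p-value is given for any of them. Of the 9 genes, 8 passed the filter on low counts that left 16647 genes for testing, and P4HA3 did not. The RNA came from trypsinized cultures of 1 established cell line grown in DMEM with fetal bovine serum, and poly(A) RNA was sequenced. There were 4 groups of 4 libraries: simvastatin with irinotecan (Combo), irinotecan alone at 0.60 µM (Irino), simvastatin alone at 0.06 µM (Simv) and the DMSO vehicle (DMSO). Combo received both drugs at those doses. Treatment began 24 h after seeding and lasted 48 h. Separate cultures behind the replicates are not stated, and p-values may therefore measure technical spread only. The library without a number in each group is called replicate 4.

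Lysyl oxidases are secreted copper-dependent enzymes that oxidise lysine and hydroxylysine side chains of collagen and elastin, which then form covalent crosslinks. Lysyl hydroxylases act earlier, inside the endoplasmic reticulum, on lysines of the nascent collagen chain, and the hydroxylysines they make set which crosslinks can form. Prolyl 4-hydroxylases, tetramers of alpha subunits such as P4HA1 to P4HA3 with the beta subunit P4HB, hydroxylate proline and stabilise the collagen triple helix.

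The stretches before a RefSeq start of LOX and PLOD2 were chosen by the range of CPM. LOX had the widest range among the lysyl oxidases and PLOD2 among the lysyl hydroxylases. The stretch of LOXL4 is shown beside them and was not chosen by this rule. The sequences are from RefSeq on GRCh38.p14, read 5′ to 3′ on the minus strand that carries each gene, and cut to lie outside the gene's annotated exons. Capitals mark ACGTG or GCGTG on either strand, the core letters of the hypoxia response element. The LOXL4 stretch holds none. Among the stretches not shown, that of PLOD1 and 1 of LOXL3 hold 1 match each, and another of LOXL3 holds none. The stretch of LOX is chr5:122078361-122078509, that of PLOD2 chr3:146161185-146161434 and that of LOXL4 chr10:98268251-98268444. The PLOD2 stretch lies inside the GENCODE span of the gene, whose 5′ end is at 146163653. The RefSeq starts that the LOX, PLOD2 and LOXL4 stretches precede were matched by no GENCODE start.
LOX: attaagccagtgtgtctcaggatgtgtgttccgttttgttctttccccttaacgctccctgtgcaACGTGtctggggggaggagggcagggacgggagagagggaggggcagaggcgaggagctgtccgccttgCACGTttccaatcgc
PLOD2: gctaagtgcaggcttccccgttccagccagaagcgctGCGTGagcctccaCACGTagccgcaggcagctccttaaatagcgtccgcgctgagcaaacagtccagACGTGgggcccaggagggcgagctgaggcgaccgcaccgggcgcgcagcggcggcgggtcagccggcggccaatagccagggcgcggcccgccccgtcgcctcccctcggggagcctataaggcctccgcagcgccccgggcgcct
LOXL4: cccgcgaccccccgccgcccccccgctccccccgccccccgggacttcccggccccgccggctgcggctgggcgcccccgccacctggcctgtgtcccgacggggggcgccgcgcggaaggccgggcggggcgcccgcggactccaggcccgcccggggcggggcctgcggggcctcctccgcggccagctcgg

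Of the 9 genes, 7 were examined in the RefSeq promoter table, over 10 windows in all, since LOX had 3 and LOXL3 had 2. Windows of these genes on chromosome 8, which carries LOXL2, were left out, and P4HA3 had none. ACGTG or GCGTG occurred on either strand in the 250 bases before a start of 4 of the 7 genes (LOX, LOXL3, PLOD1 and PLOD2), against 47.4% of all 27305 genes with a window. ACGTG alone occurred for 2 of the 7, LOX and PLOD2, against 21.7% of all genes. Counted per window, the shares were 6 of 10 for either motif and 4 of 10 for ACGTG, against 43.2% and 18.5% of all 35116 windows. The LOX window that holds the printed stretch had 4 ACGTG matches, a number reached by 0.669% of windows. Of its matches, 2 lay in the printed stretch and the others inside the annotated span of the gene. The other LOX windows, which overlap each other and lie inside that span, had 1 each. CAGACA occurred on either strand in that first LOX window and in no other window of these genes, against 13.6% of all windows, and TGANTCA occurred in none, against 6.57%. None of the matches in the printed stretches lay in CACGTG. A match describes letters and is not a binding site.

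The libraries held 24159673 to 32318888 counts each. Mitochondrial genes took 2.37% to 4.58% of the counts, and library scaling factors ran from 0.971 to 1.033. Summed astroglial and glioma markers (6 of 7 tested) ran from 2897 to 3084 CPM in Combo, 2877 to 3136 in Irino, 3634 to 3923 in Simv and 3738 to 4045 in DMSO, and AQP4 was under 0.5 CPM. Markers of fibroblasts and pericytes summed to 335 to 355 CPM in Combo, 370 to 386 in Irino, 294 to 312 in Simv and 347 to 366 in DMSO, with DCN and LUM under 0.5 CPM. Endothelial markers summed to at most 6.95 CPM and microglial and leukocyte markers to at most 2.19 CPM in any library. Epithelial markers, led by keratins that gliomas can also carry, summed to 513 to 587 CPM in Combo, 591 to 651 in Irino, 367 to 398 in Simv and 407 to 458 in DMSO, with EPCAM and CDH1 under 0.5 CPM. These marker sums are CPM of library totals without the scaling factors, unlike the CPM of the genes below. Those factors were 1.025 to 1.033 in Irino and 0.971 to 0.987 in DMSO, and applying them lowers Irino sums and raises DMSO sums. The part of these marker levels in the results was not tested. In bulk RNA, fewer cells that express a gene and less RNA per cell cannot be told apart.

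Per kb of exon, PLOD2 stood highest in DMSO at 93.3 CPM per kb, followed by PLOD1 at 80.8, LOXL1 at 56.7, LOXL4 at 56.4, LOXL2 at 26.2, PLOD3 at 16.2, LOX at 12.5, LOXL3 at 1.04 and P4HA3 at 0.064. LOXL1 and LOXL4 did not differ beyond their spread. LOX lay below PLOD3 in Combo, Irino and DMSO and above it in Simv, where LOX reached 24.1 CPM per kb.

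**Figure D1:**
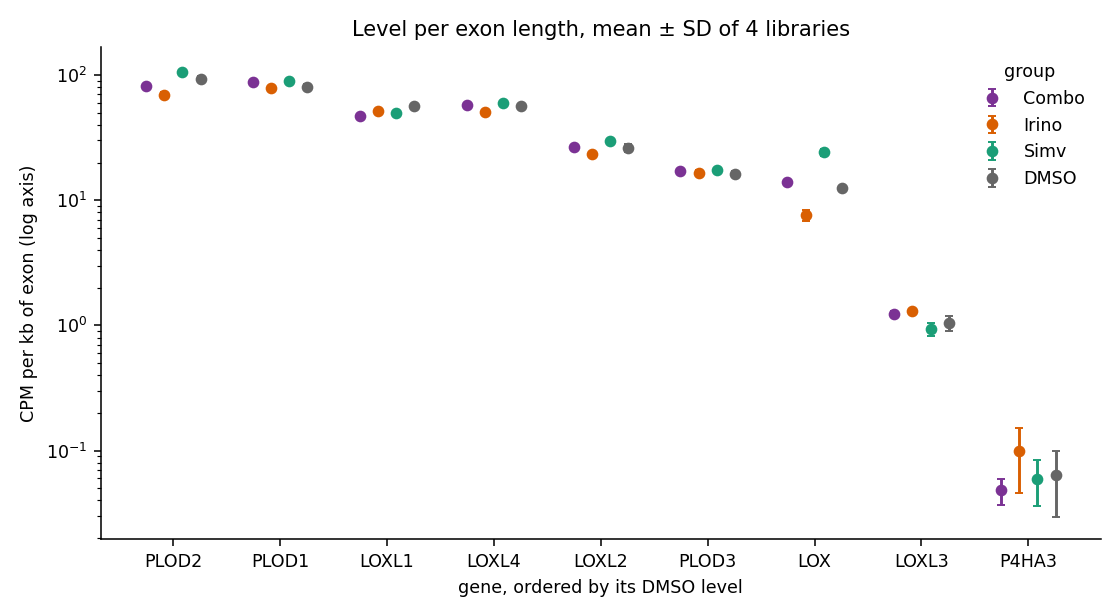
CPM per kb of exon (log axis) for the 9 genes, ordered by their DMSO level, with points for the mean and bars for the SD of 4 libraries in Combo, Irino, Simv and DMSO. LOX spans 7.60 CPM per kb in Irino to 24.1 in Simv, and the other tested genes keep closer levels across groups.

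LOX, which crosslinks collagen and elastin, had 77.4, 75.8, 79.0 and 79.5 CPM in Combo, 41.9, 36.4, 42.6 and 47.6 in Irino, 132, 123, 135 and 146 in Simv, and 69.4, 64.8, 71.8 and 70.8 in DMSO (replicates 1 to 4, as for every gene below). Every Simv library lay above every other library, every Irino library lay below every other library, and the Combo libraries lay just above those of DMSO. The log2 fold change of Simv against DMSO was 0.95 ± 0.06 (SE), that of Irino against DMSO was -0.72 ± 0.06, and that of Combo against DMSO was 0.17 ± 0.06. Set against the single drugs, Combo differed by 0.89 ± 0.06 from Irino and by -0.78 ± 0.06 from Simv. LOX overlaps SRFBP1 on the opposite strand, and the strand setting of the counting is not given in the sources used here. SRFBP1 averaged 16.5 ± 1.6 CPM in Combo, 15.4 ± 1.1 in Irino, 16.3 ± 0.4 in Simv and 15.3 ± 0.7 in DMSO (SD, n = 4 each).

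**Figure D2:**
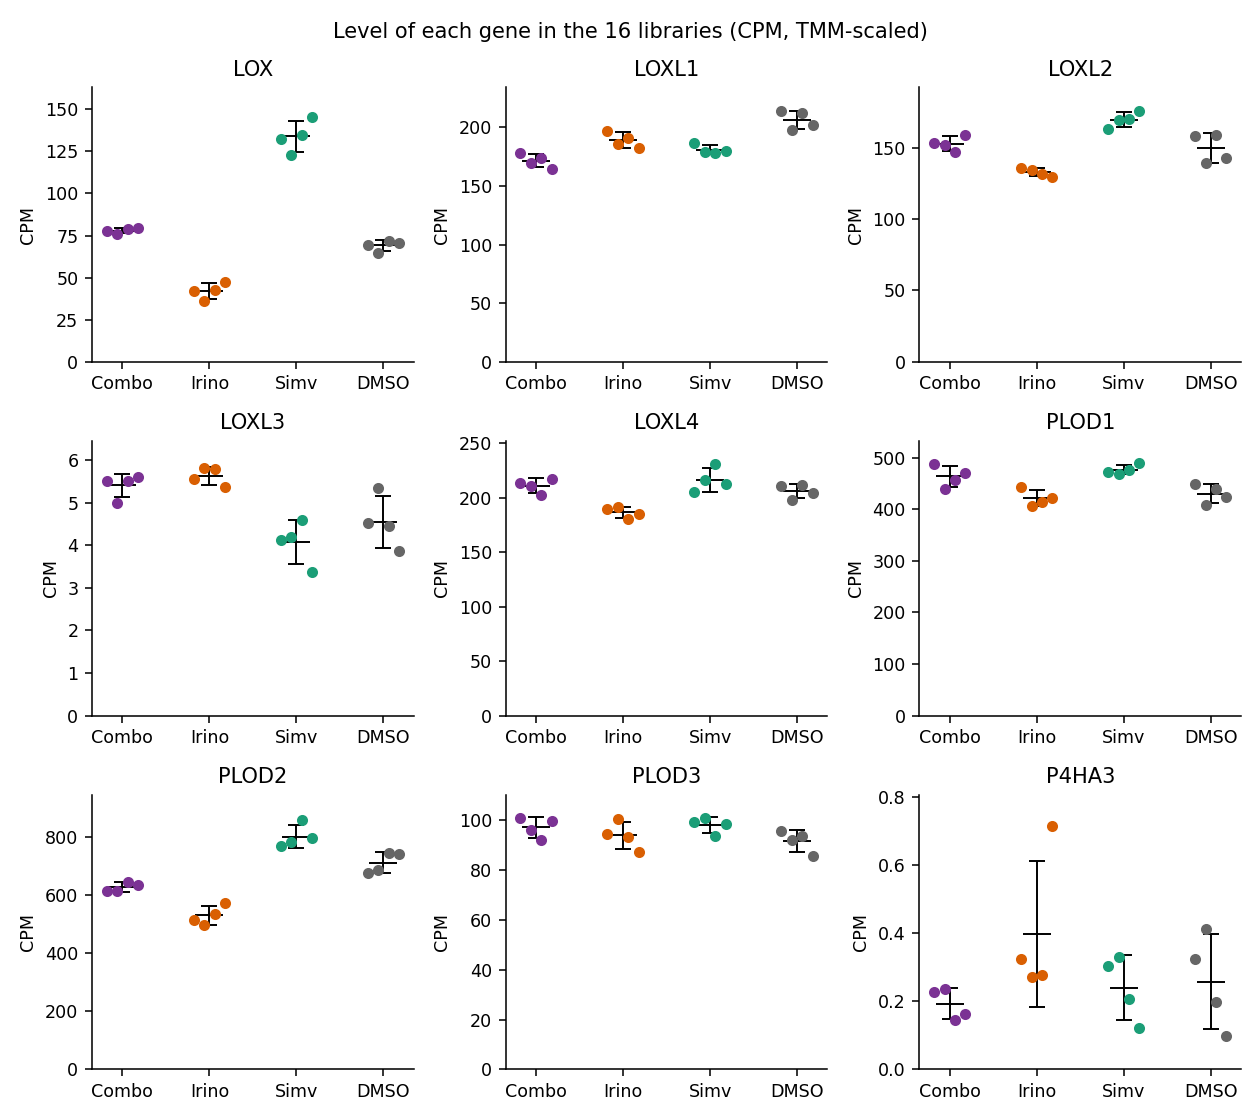
CPM (TMM-scaled) of each of the 9 genes in the 16 libraries by group, with 1 point per library, a line at the mean and bars for the SD of 4 libraries. LOX and PLOD2 have their highest libraries in Simv and their lowest in Irino, and PLOD3 overlaps in every pair of groups.

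LOXL1, a lysyl oxidase that serves elastic fibres, had 178, 170, 174 and 165 CPM in Combo, 197, 186, 191 and 182 in Irino, 187, 179, 178 and 180 in Simv, and 214, 197, 212 and 202 in DMSO. The Combo, Irino and Simv libraries all lay below those of DMSO, Irino by as little as 197.2 against 197.3 CPM. The log2 fold changes against DMSO were -0.27 ± 0.04 for Combo, -0.13 ± 0.04 for Irino and -0.19 ± 0.04 for Simv. These comparisons share the DMSO libraries. The antisense gene LOXL1-AS1 averaged 33.3 ± 0.2 CPM in Combo, 34.9 ± 1.0 in Irino, 38.8 ± 1.8 in Simv and 44.2 ± 1.7 in DMSO, and without a known strand setting the reads of the pair cannot be told apart.

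LOXL2, which oxidises basement membrane collagen, had 154, 152, 147 and 159 CPM in Combo, 135, 134, 132 and 129 in Irino, 163, 170, 170 and 176 in Simv, and 158, 139, 159 and 143 in DMSO. Irino lay below and Simv above every DMSO library, and Combo overlapped DMSO. The log2 fold changes against DMSO were 0.03 ± 0.04 for Combo, -0.17 ± 0.04 for Irino and 0.18 ± 0.04 for Simv. LOXL2 overlaps ENTPD4 on the same strand, where no strand setting separates reads of shared bases, and ENTPD4 averaged 101 ± 1 CPM in Combo, 93.9 ± 4.1 in Irino, 99.8 ± 3.6 in Simv and 96.4 ± 7.0 in DMSO. LOXL4, a further lysyl oxidase-like enzyme, averaged 211 ± 7 CPM in Combo, 187 ± 5 in Irino, 216 ± 11 in Simv and 206 ± 7 in DMSO (SD, n = 4). Its Irino libraries lay below all others, and its log2 fold change was -0.14 ± 0.04 for Irino against DMSO and 0.18 ± 0.04 for Combo against Irino. With library totals in place of TMM scaling, LOXL1, LOXL2 and LOXL4 no longer passed the threshold in Irino against DMSO, with log2 fold changes of -0.05, -0.10 and -0.07.

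LOXL3, the least abundant lysyl oxidase here, had 5.51, 5.00, 5.51 and 5.62 CPM in Combo, 5.57, 5.83, 5.79 and 5.37 in Irino, 4.12, 4.21, 4.61 and 3.38 in Simv, and 4.53, 5.34, 4.46 and 3.87 in DMSO. Irino libraries all lay above DMSO libraries, by as little as 5.37 against 5.34 CPM. The log2 fold change was 0.32 ± 0.11 for Irino against DMSO and 0.40 ± 0.11 for Combo against Simv. The Irino against DMSO call was lost in 10 of 24 other settings, among them the omission of DMSO replicate 1, 3 or 4 or Irino replicate 1, 2 or 3. LOXL3 overlaps DOK1 and HTRA2 on the opposite strand, with group means of 17.7 to 20.4 CPM.

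PLOD2, the hydroxylase of the collagen telopeptide lysines, had 615, 616, 648 and 638 CPM in Combo, 514, 498, 537 and 574 in Irino, 771, 783, 859 and 797 in Simv, and 677, 689, 746 and 741 in DMSO. The 4 groups did not overlap, in the order Irino, Combo, DMSO and Simv. The log2 fold changes against DMSO were -0.18 ± 0.04 for Combo, -0.43 ± 0.04 for Irino and 0.17 ± 0.04 for Simv. PLOD1, a hydroxylase of the helical lysines, averaged 464 ± 21 CPM in Combo, 422 ± 16 in Irino, 477 ± 9 in Simv and 430 ± 18 in DMSO. Simv lay above every DMSO library, whereas Combo and Irino each overlapped DMSO. The log2 fold changes of PLOD1 against DMSO were 0.11 ± 0.04 for Combo, -0.03 ± 0.04 for Irino and 0.15 ± 0.04 for Simv. PLOD3, which also carries glycosyltransferase activity, averaged 97.3 ± 4.1 CPM in Combo, 94.0 ± 5.5 in Irino, 98.2 ± 3.1 in Simv and 91.9 ± 4.4 in DMSO, with every group overlapping every other. It overlaps ZNHIT1 on the opposite strand, with group means of 39.67 to 42.25 CPM.

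P4HA3 had 6, 6, 4 and 4 counts in Combo, 9, 9, 8 and 18 in Irino, 8, 8, 6 and 3 in Simv, and 9, 10, 5 and 3 in DMSO. Every Combo library lay below every Irino library, and every other pair of groups overlapped. The counts were too few for the gene to enter the test. P4HA3 overlaps PPME1 on the opposite strand, with group means of 89.2 to 95.3 CPM. Without a known strand setting, how many of the P4HA3 counts came from PPME1 cannot be told.

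**Figure D3:**
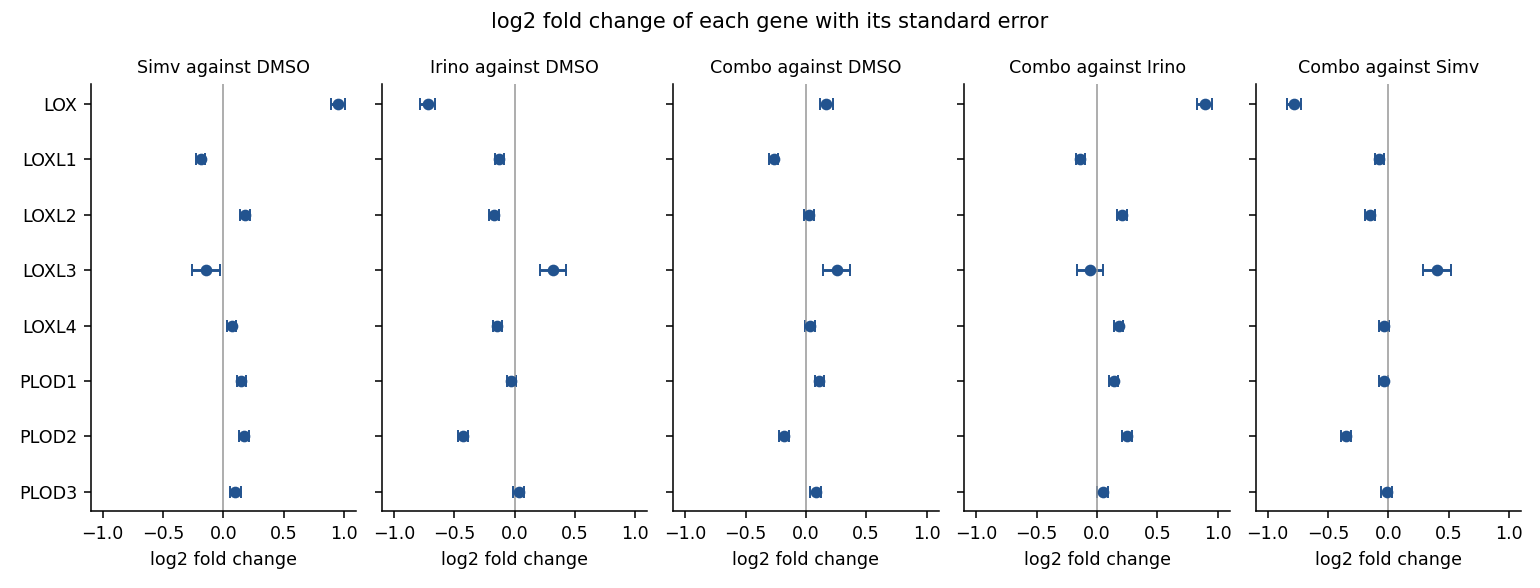
log2 fold change of the 8 genes past the filter in 5 comparisons, with points for the estimate and bars for the standard error. LOX lies farthest from 0 in 4 of the 5 panels, at 0.95 in Simv against DMSO and -0.72 in Irino against DMSO.

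Of the 8 genes, 4 were called higher in Simv against DMSO at an edgeR adjusted p under 0.05 (LOX, LOXL2, PLOD1 and PLOD2) and 1 lower (LOXL1), beside 3.89% and 2.11% of all genes tested. There the PLOD1 call was lost without Simv replicate 4 or DMSO replicate 2, and the PLOD2 call without DMSO replicate 1. In Irino against DMSO, 1 was called higher (LOXL3) and 5 lower (LOX, LOXL1, LOXL2, LOXL4 and PLOD2), beside 12.4% and 11.7%. With library totals these were 1 higher and 2 lower. In Combo against DMSO, 2 were called higher (LOX and PLOD1) and 2 lower (LOXL1 and PLOD2), beside 15.1% and 13%. With library totals these were 4 higher and 2 lower. The LOX call in that comparison was lost without DMSO replicate 1 or 2 or Combo replicate 1, 3 or 4, and the PLOD1 call without DMSO replicate 2 or 4 or Combo replicate 1 or 4. In Combo against Irino, 5 were called higher (LOX, LOXL2, LOXL4, PLOD1 and PLOD2) and 1 lower (LOXL1), beside 4.45% and 1.5%. There the LOXL1 call was lost without Combo replicate 2 or 4 or Irino replicate 1 or 3, and the PLOD1 call without Combo replicate 1 or 4 or Irino replicate 2 or 3. In Combo against Simv, 1 was called higher (LOXL3) and 3 lower (LOX, LOXL2 and PLOD2), beside 13.9% and 11.7%. The genes were chosen on these contrasts, so nothing is read from the counts. The split over all genes moved with the scaling: library totals gave 3782 higher and 1079 lower in Irino against DMSO, where TMM gave 2064 and 1951. They gave 3866 and 1401 in Combo against DMSO (TMM 2519 and 2159), 594 and 351 in Combo against Irino (TMM 740 and 249), and 3523 and 1278 in Combo against Simv (TMM 2306 and 1953). The median log2 fold change of the 8 genes against DMSO was 0.06 in Combo, -0.14 in Irino and 0.12 in Simv. That of all genes was within 0.01 of 0, where TMM scaling by design puts most genes. With library totals the all-gene median against DMSO was 0.057 in Combo, 0.075 in Irino and -0.0025 in Simv.

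The change with both drugs was set against the sum of the single-drug changes. For LOX, Combo against DMSO was 0.17 and the sum was 0.23, a departure of -0.06 ± 0.08 (SE). For PLOD2 they were -0.18 and -0.26, a departure of 0.08 ± 0.06, and for LOXL4 0.03 and -0.07, a departure of 0.11 ± 0.05. In edgeR's interaction test 0 of the 8 genes were called, 0 had an unadjusted p under 0.05 and DESeq2 called 0. Over all 16647 genes the test called 0% higher and 0.012% lower, 1000 had an unadjusted p under 0.05 and DESeq2 called 5. Even the LOXL4 departure, larger than its error, was not called, so departures of this size could be missed and additivity is not shown.

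**Figure D4:**
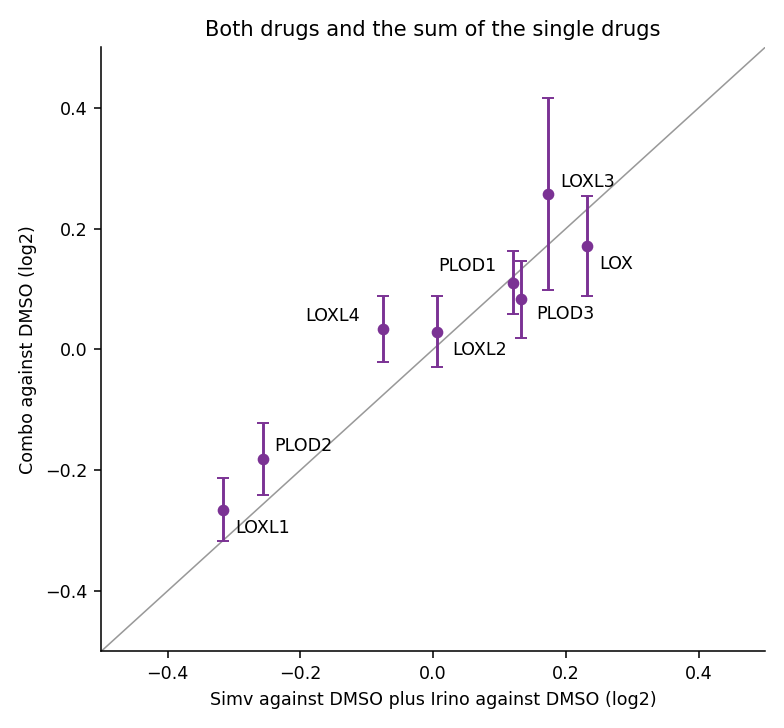
Combo against DMSO (log2, y axis) and the sum of Simv against DMSO and Irino against DMSO (log2, x axis) for the 8 genes; bars are the standard error of the departure and the line marks equality. LOXL4 lies farthest above the line, by 0.11.

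The genes whose log2 CPM was most like that of a member over the 16 libraries, among 12006 genes, are given as a description, since the points share the 4 treatments. For LOX these were AMIGO2 (Pearson r = 0.984), STC2 (0.98) and SLC16A1 (0.978), and for PLOD2 they were EGLN1 (0.99), DLG1 (0.988) and BCAT1 (0.984). LOXL1 was most like NUP93 (0.944), LOXL2 most like PRDX4 (0.963), LOXL3 most like NID2 (0.958), LOXL4 most like DAP (0.899), PLOD1 most like TMEM214 (0.92) and PLOD3 most like JTB (0.926).

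Other genes of collagen handling were counted from lists chosen with earlier results known. In Simv against DMSO, 14 of 85 were called higher and 1 lower, beside the 3.89% and 2.11% of all genes. Of 9 prolyl hydroxylation genes 6 rose and 0 fell, among them P4HA2 at 96.8 ± 1.9 CPM in Simv and 69.9 ± 1.7 in DMSO (edgeR adjusted p = 1.87e-09) and P4HA1 at 280 ± 7 and 225 ± 6 (edgeR adjusted p = 9.83e-08). Of 15 folding and export genes 4 rose: SEC24D, a coat protein of collagen export, FKBP14, SEC23A and the collagen chaperone SERPINH1. The copper importer SLC31A1 rose by 0.29 ± 0.05 (edgeR adjusted p = 7.58e-05), 1 of 7 copper supply genes. The fibulin FBLN1 fell by 0.17 ± 0.03 (edgeR adjusted p = 0.000505).

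In Irino against DMSO, 12 of 85 were called higher and 16 lower, and 21 higher and 12 lower with library totals. All genes stood at 12.4% and 11.7% with TMM. Of the 9 prolyl hydroxylation genes 0 rose and 3 fell (2 and 2 with library totals), the 3 being P4HA1, P4HA2 and P4HB, with P4HA1 at 169 ± 3 CPM in Irino and 225 ± 6 in DMSO (edgeR adjusted p = 1.04e-10). Of 17 network and other collagens 8 fell and 1 rose. COL8A1 fell to 104 ± 2 CPM in Irino, against 160 ± 4 in DMSO (edgeR adjusted p = 9.89e-14). Of 9 fibrillar collagens COL1A1 rose and COL11A1 fell, with log2 fold changes of 0.45 ± 0.06 and -0.30 ± 0.04 (edgeR adjusted p = 9.36e-07 and 2.52e-07). The transglutaminase TGM2, a crosslinker of another chemistry, averaged 1.21 ± 0.17 CPM in Irino and 0.227 ± 0.065 in DMSO (edgeR adjusted p = 9.13e-08).

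In Combo against DMSO, 26 of 85 were called higher and 7 lower, beside 15.1% and 13% of all genes. Of 9 prolyl hydroxylation genes 5 rose and 0 fell, and of 15 folding and export genes 7 rose and 0 fell. COL1A1 averaged 41.8 ± 1.6 CPM in Combo and 24.6 ± 1.3 in DMSO (edgeR adjusted p = 3.04e-11), and FKBP14 101 ± 2 and 65.8 ± 2.9 (edgeR adjusted p = 4.95e-12). COL8A1, COL4A6, COL6A1, COL18A1 and COL4A5 fell and COL4A1 rose among the 17 network and other collagens, and with library totals 2 rose and 5 fell. In Combo against Irino, 20 of 85 were called higher and 1, the propeptidase ADAMTS14, lower, beside 4.45% and 1.5% of all genes. In Combo against Simv, 15 were called higher and 15 lower, beside 13.9% and 11.7% of all genes. With library totals 28 were called higher and 12 lower. In the interaction edgeR called 0 of 85, with 16 at an unadjusted p under 0.05 and 1 called by DESeq2. Of all 16647 genes edgeR called 2, with 1000 at an unadjusted p under 0.05 and 5 called by DESeq2.

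LOX and PLOD2 are known targets of hypoxia-inducible factor, and 16 other such targets were counted. In Simv against DMSO 9 rose and 0 fell, beside the all-gene shares of 3.89% and 2.11%. In Irino against DMSO 0 rose and 13 fell, beside 12.4% and 11.7%. In Combo against DMSO 0 rose and 12 fell, beside 15.1% and 13%. LOX was called higher and PLOD2 lower in that comparison, with log2 fold changes of 0.17 and -0.18. In Combo against Irino 7 of the 16 rose and 0 fell, beside 4.45% and 1.5%. In Combo against Simv 0 rose and 14 fell, beside 13.9% and 11.7%. A part of this factor in the changes of LOX and PLOD2 was not tested. The glycolytic enzyme PGK1 averaged 2913 ± 94 CPM in Combo, 2322 ± 87 in Irino, 4379 ± 58 in Simv and 3607 ± 151 in DMSO. Of 14 TGF-beta response genes 2 rose and 6 fell in Combo and 1 rose and 7 fell in Irino, each against DMSO, beside the all-gene shares of 15.1% and 13% in Combo and 12.4% and 11.7% in Irino. With library totals 4 rose and 5 fell in Combo and 2 rose and 5 fell in Irino.

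**Figure D5:**
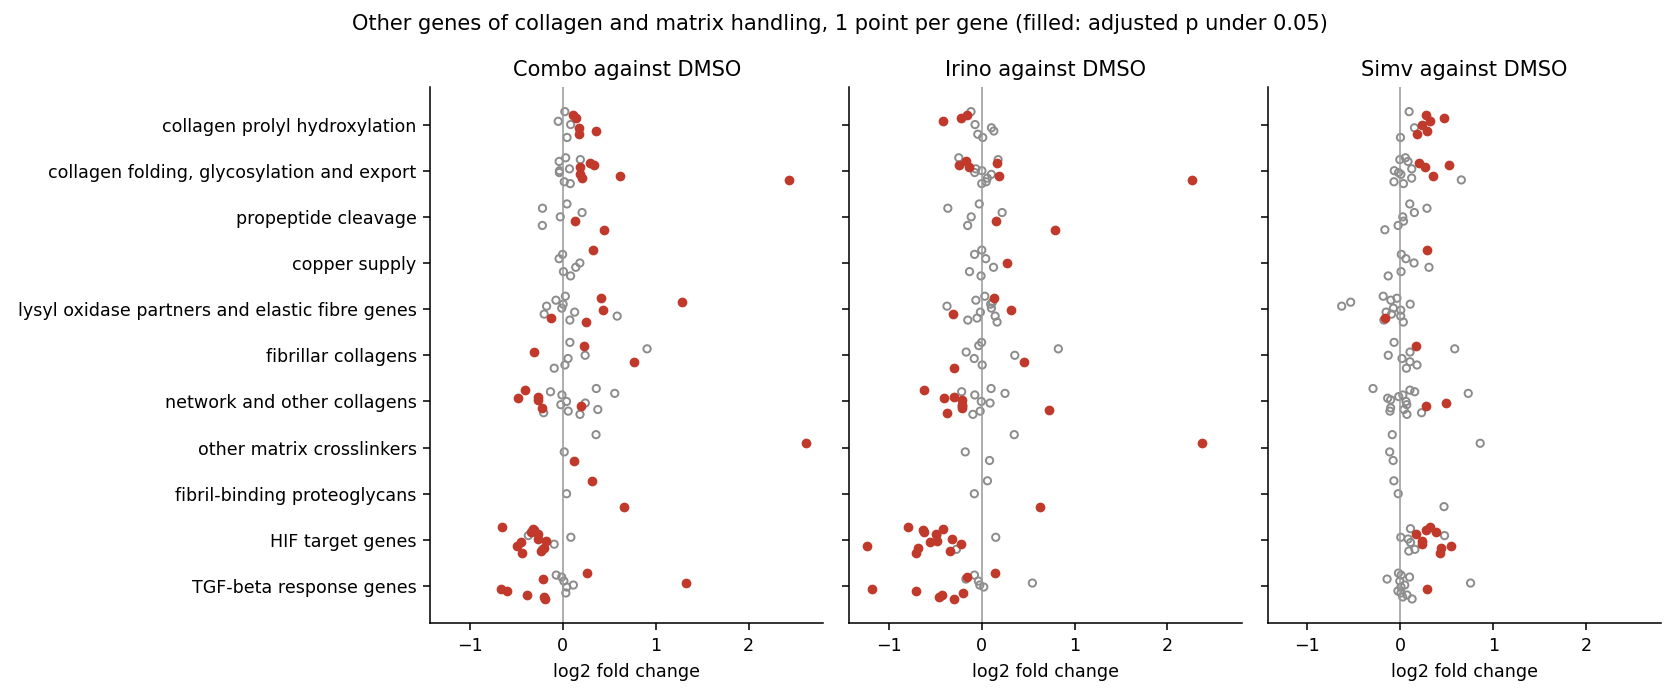
log2 fold change of each other gene, by list, against DMSO in Combo, Irino and Simv, with 1 point per gene and filled points for an adjusted p under 0.05. Of the 16 hypoxia-inducible factor targets, 0 rose and 12 fell in Combo, 0 rose and 13 fell in Irino, and 9 rose and 0 fell in Simv. All genes tested stood at 15.1% higher and 13% lower in Combo, 12.4% and 11.7% in Irino, and 3.89% and 2.11% in Simv.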

How the data were processed

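The deposited table holds whole-number counts per gene for the 16 libraries, which the authors had not normalised. The submitters' processing notes name FastQC, STAR 2.7.1, GRCh38 and DESeq2; how genes were counted, with which annotation and strand, is not given in the sources used here. Genes were filtered with filterByExpr (minimum count 10, minimum total 15) and scaled by TMM, leaving 16647. edgeR 4.0.16 with limma 3.58.1 in R 4.3.3 fitted 1 term per group to all 16 libraries with quasi-likelihood F tests, two-sided, and Benjamini-Hochberg adjustment over all genes (threshold 0.05). SE is the log2 fold change divided by the square root of F. The common biological coefficient of variation was 5.25%. Figures used Python 3.11.15 and matplotlib 3.10.9. Exon lengths and coordinates came from GENCODE on GRCh38.

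The members and lists were chosen with earlier results of these data known. Named companions were the called genes with the smallest p, at most 4 per list and comparison, and 9 genes whose role pairs with a member; values are printed for examples among them, picked after their values were seen, and other names are those a count refers to. Outliers and alternatives were computed for all of them. Likeness was ranked among genes averaging 1 or more in log2 CPM, 3 genes per member; for the other members only the first is printed. No pair of replicates agreed within sampling noise (chi-square per degree of freedom 2.59 to 15.5, 24 pairs). Alternatives were median-ratio factors, library totals, DESeq2 1.42.0, no low-count filter, the compared groups only, a replicate block, an adjusted p under 0.01 and each library left out. The fit was tested on simulated data with the same spread for every gene and independent libraries, so that test does not measure the error of the calls here. The values of 1 gene of the TGF-beta list are not reported here.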

Additional observations from a re-analysis of the deposited data

Results flagged for a closer look

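Among 268 sets of 4 libraries (the 9 genes and every companion gene the naming rule gave), 11 single libraries stood apart from the other 3 of their group by Dixon's test, which chance does in about 1 in 20 sets. P4HA3 was 0.716 CPM in Irino replicate 4, from 18 counts against 8 to 9 in the other 3. In DMSO, FKBP14 was 70.2 CPM in replicate 2, FN1 250.1 and VCAN 165 in replicate 3, and THBS1 199.7 and COL18A1 384 in replicate 4. In Simv, SPARC was 1991 CPM in replicate 4, SLC2A1 810.2 in replicate 2 and HK2 128.5 in replicate 3. SLC2A1 was 593.7 CPM in Irino replicate 4 and TGFBR2 was 111 CPM in Combo replicate 3.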

How the results depend on the processing

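No called change reversed under any alternative. The number of the 8 genes called in Simv against DMSO was 5, and 3 with the 12 numbered libraries without a block or at an adjusted p under 0.01. In Irino against DMSO it was 6, and 3 with library totals. In Combo against DMSO it was 4, 2 at an adjusted p under 0.01 and 2 to 4 with 1 library left out; in Combo against Irino it was 6, and 3 with the 12 numbered libraries without a block. The labels give no shared batch for a replicate number and not every same-number pair correlated over 0.1 (18 pairs, r -0.065 to 0.2, 4 over 0.1), so the fit without a block was kept; 9 of 12 libraries correlated best with their own number, a hint from the data. On the 12 numbered libraries, the replicate block called 33 companion genes in Combo against Irino and 9 in the interaction, against 17 and 0 without it (21 and 0 with 16 libraries). Over all genes it called 2016 and 190, against 707 and 1, and 1136 against 513 in Simv against DMSO. Among the companion genes the interaction called 1 with DESeq2, 1 without the low-count filter and 0 to 1 with 1 library left out. Over all genes the interaction called 5 with DESeq2, 14 without the low-count filter and 0 to 9 with 1 library left out. The causes were not tested. Few counts limit P4HA3, LOXL3, TGM2 and CREB3L1.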
